A study of Mus musculus with 8 samples.

Results

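The 1885 exons described here are short internal coding exons of mouse genes that could be counted in fully grown germinal vesicle (GV) oocytes. An exon ID entered the set when it was internal in every transcript that holds it in GENCODE M21 (mm10), belonged to a protein-coding gene, held coding bases, was under 200 bases long and reached 40 counts over the 8 libraries together. The annotation has 156748 short internal coding exon IDs and 1.20% of them met the count minimum. They lie in 1346 genes and are a small part of the 496288 exon IDs counted. The count minimum used the summed counts of both groups and no difference between them, so an exon could meet it through a single group. All 1885 exons were tested for level, because the filter of the test is the same 40 counts. The 218 exons that are the sole tested exon of their gene have no measure of usage, which leaves 1667.

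Oocytes of 2 groups of C57BL/6 females were compared, with 4 libraries each. Control oocytes were Kiaa1429F/+;Zp3-Cre and conditional knockout (cKO) oocytes were Kiaa1429F/F;Zp3-Cre, so controls also carried the Cre transgene and 1 floxed allele. Kiaa1429 is the older name of Virma, part of the methyltransferase complex for N6-methyladenosine (m6A), a mark on RNA, and the Zp3 promoter drives Cre in growing oocytes. The mice are given as 20 days old in the labels and 3 weeks old in the protocol, each library held about 20 oocytes of at least 70 µm taken 48 hours after PMSG (5 IU), which stimulates antral follicles, and how many mice gave each library is not stated in the sources used here. P-values therefore measure the spread between these pools, which come from 4 separate experiments per the series text.

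Internal coding exons are defined by a splice acceptor upstream and a splice donor downstream, and most vertebrate internal exons are short. Their inclusion depends on spliceosome components and on SR and hnRNP proteins, which bind exon and intron sequences. The m6A mark lies mostly in long internal exons and near stop codons, inside a short motif whose best known form is GGACT in DNA letters, and short exons close to splice junctions carry little of it. A GV oocyte is transcriptionally silent when fully grown and lives on stored RNA, so exon levels reflect transcripts made and kept during growth.

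The exons below, given with mm10 positions, are a selection from those with the smallest p-values for usage or the largest changes in level. Other exons with p-values or changes as extreme are not shown. The sequences are those of GENCODE M21 transcripts, 5′ to 3′ in the direction of the transcript, and each is coding along its whole length. Capitals mark GGACT, searched on the transcript strand alone. Of the 9 exons shown, GGACT was in that of Dnah8.
Ago2 121 b, chr15:73137993-73138113, minus strand: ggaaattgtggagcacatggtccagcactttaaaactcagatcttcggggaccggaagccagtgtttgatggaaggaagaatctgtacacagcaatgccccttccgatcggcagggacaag
Dppa2 196 b, chr16:48317288-48317483, plus strand: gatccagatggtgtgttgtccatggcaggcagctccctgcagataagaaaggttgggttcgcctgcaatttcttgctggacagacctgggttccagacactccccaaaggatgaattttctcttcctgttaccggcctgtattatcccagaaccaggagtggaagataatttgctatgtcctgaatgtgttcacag
Zdhhc14 49 b, chr17:5714969-5715017, plus strand: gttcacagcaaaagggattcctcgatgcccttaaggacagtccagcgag
Dnah8 190 b, chr17:30648416-30648605, plus strand: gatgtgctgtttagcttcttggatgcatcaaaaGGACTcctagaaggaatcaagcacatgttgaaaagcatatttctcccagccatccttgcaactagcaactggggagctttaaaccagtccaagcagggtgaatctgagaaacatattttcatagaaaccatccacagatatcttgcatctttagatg
Nlrp2 60 b, chr7:5332960-5333019, minus strand: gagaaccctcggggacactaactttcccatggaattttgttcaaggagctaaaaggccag
Cage1 108 b, chr13:38015680-38015787, minus strand: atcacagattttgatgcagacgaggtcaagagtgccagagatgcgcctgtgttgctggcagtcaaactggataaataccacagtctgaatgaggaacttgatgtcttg
Chd9 90 b, chr8:91015835-91015924, plus strand: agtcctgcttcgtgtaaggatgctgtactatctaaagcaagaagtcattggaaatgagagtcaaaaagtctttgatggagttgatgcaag
Lrriq4 197 b, chr3:30659901-30660097, plus strand: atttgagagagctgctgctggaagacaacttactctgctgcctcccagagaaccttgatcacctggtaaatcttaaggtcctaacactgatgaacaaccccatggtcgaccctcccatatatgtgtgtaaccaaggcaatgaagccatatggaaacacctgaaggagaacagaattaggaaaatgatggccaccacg
Efcab1 152 b, chr16:14920295-14920446, plus strand: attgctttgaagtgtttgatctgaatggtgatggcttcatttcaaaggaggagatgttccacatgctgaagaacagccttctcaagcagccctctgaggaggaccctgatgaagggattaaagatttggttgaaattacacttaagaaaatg

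The libraries held 4235691 to 5052551 counts on annotated exon IDs. HTSeq, the counting tool, sets apart as ambiguous the read pairs it cannot give to 1 exon ID. Where the counted fragments lie, within a short exon or beyond it, was not tested. The set took 1.56%, 1.38%, 1.32% and 1.61% of exon counts in the control libraries and 1.33%, 1.35%, 1.23% and 1.40% in the cKO libraries, and the groups overlapped. The libraries also differed by genotype in 6 measures without overlap. Reads outside every exon ID were 11.0% ± 0.883 of reads in controls and 5.77% ± 0.531 in cKO (SD, n = 4). Ambiguous reads were 73.8% ± 1.07 and 79.3% ± 0.751, and last exons took 75.8% ± 0.556 and 78.1% ± 0.452 of exon counts. The summed level of 16 cumulus and granulosa markers was 236 to 388 CPM (exon counts scaled to 1000000 per library) in controls and 458 to 746 CPM in cKO. The 10 oocyte markers summed to 29231 to 41460 CPM in controls and 14756 to 18150 CPM in cKO. The 8 immune and blood markers, of which 5 were at 0, summed to 0.240 to 1.50 CPM in controls and 5.56 to 9.51 CPM in cKO. The part of these measures in the results was not tested. In pools of whole oocytes, fewer cells of a type and less RNA per cell cannot be told apart.

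Virma itself had no exon in the set. Of its 15 short internal coding exons, 6 held any count and the highest held 5 counts over the 8 libraries. Its gene sum was 60.3, 70.8, 56.7 and 81.0 CPM in controls and 18.5, 24.1, 17.8 and 16.9 CPM in cKO, which checks the labels (log2 change -1.80, SE 0.18, edgeR adjusted p = 8.69e-07). Across the 1885 exons, log values of libraries correlated at 0.884 to 0.933 within controls, 0.905 to 0.929 within cKO and 0.651 to 0.694 between groups, as a description over exons that share libraries.

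Longer exons of the class met the count minimum more often. The minimum of 40 counts was met by 0.294% of those under 50 bases, 0.663% from 50 to 99, 1.10% from 100 to 149 and 2.38% from 150 to 199, against 7.85% of internal coding exons of 200 bases or more. No read was counted on 85.9% of all short internal coding exons, which says nothing of their presence in the RNA. The members had a median length of 143 bases (114 for all short internal coding exons) and a median of 96 counts over the 8 libraries. Detection was broad: 1764 of the 1885 held a count in every library.

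A few exons held much of the signal. The 6 with most counts held 13.8% of the counts of the set and the top 100 held 45.3%. The 174 base exon of Enox1, which encodes a cell surface NADH oxidase, held 7.19% alone. Within their genes, 1170 members held over 50% of the counts of all short internal coding exons of the gene, and 316 held over 50% of the counts of all its tested exons. Genes with 1 member numbered 1001, those with 2 numbered 234 and those with 3 or more numbered 111, up to 8 in Dym and in the axonemal dynein gene Dnah8.

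The exons of the set stood beside longer introns than short exons at large. Their median upstream and downstream introns were 2745 and 2268 bases long, against 1298 and 1183 bases for all short internal coding exons. In the longest transcript that holds it, a member was exon 2 in 21.9% of cases and the exon before the last in 16.7%, against 10.1% and 11.3% of all short internal coding exons. They were also in every coding transcript that spans them in 85.8% of cases, against 67.3%. Counts per countable base were more than 10-fold those of both neighbouring exons for 346 of the 1187 members whose neighbours could be counted (at least 50 bases free of other exon IDs), so 29.1% stood out from the exons beside them. The set was chosen on counts, so these are descriptions of which short exons can be counted here.

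More members were lower than higher in cKO oocytes. In edgeR's quasi-likelihood test over all 18535 exon IDs with 40 counts, 496 members were lower (26.3%) and 274 higher (14.5%) at an adjusted p under 0.05, where the background over all tested exon IDs was 24.7% lower and 23.5% higher. The share lower is thus near the background, while the share higher is below it. The median log2 change of the members was -0.26, against 0.01 for all tested exons and 0.07 for the 2032 long internal coding exons, of which 16.0% were lower and 18.8% higher. First exons were close to the members (27.4% lower, 16.5% higher, median -0.16) and last exons were not (24.0% lower, 30.5% higher, median 0.12). Among the called members, 388 were lower and 220 higher by at least 2-fold, a count not made over all exon IDs. The median log2 change of called members was -1.43 for falls and 1.50 for rises. Over all called exon IDs it was -1.39 and 1.31. CPM did not overlap between groups for 736 members (39.0%), against 43.8% of all tested exon IDs.

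**Figure D1:**
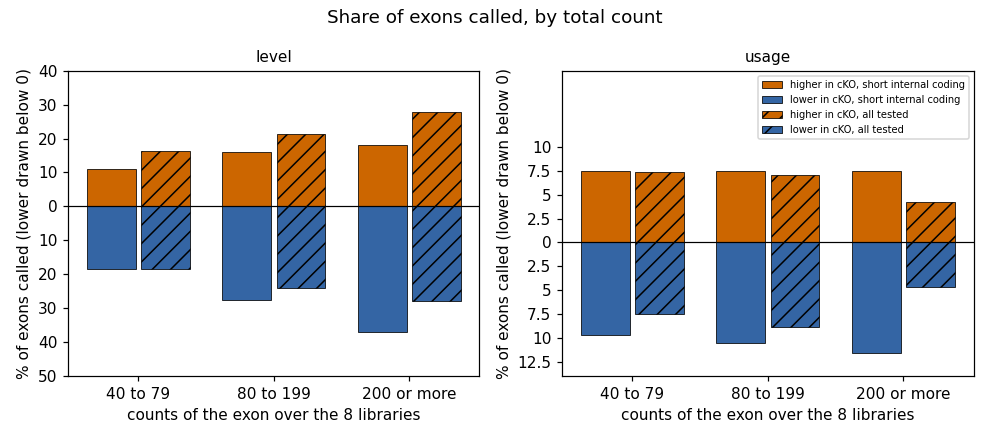
Share of exon IDs called higher (above 0) or lower (below 0) in cKO for level (left) and usage (right), in 3 ranges of total count over the 8 libraries, for short internal coding exons (plain bars) and all tested exon IDs (hatched bars). Among exons of 200 or more counts, 37.2% of the short internal coding exons were lower in level against 27.9% of all exons, and 11.6% were lower in usage against 4.65%.

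The comparison with other exons differs by range of counts, as the bars of calls by total count show. Among exons with 40 to 79 counts, 18.4% of members and 18.6% of all tested exons were lower in level. With 200 or more counts, 37.2% of members were lower and 18.1% higher, against 27.9% and 27.9% of all tested exons. The median change of the members was -0.25, -0.28 and -0.27 in the 3 ranges. Without a scaling factor beyond library size, the median of all exons moved up by 0.13 on the log2 scale and the calls were 440 lower and 323 higher.

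The members with most counts changed little or moderately. The Enox1 exon (chr14:77577612-77577785) had 1155, 984, 887 and 1130.4 CPM in controls and 984, 967, 1017 and 903 in cKO, with overlap (log2 change -0.10, SE 0.12, edgeR adjusted p = 0.510). The 171 base exon of Nsmce2, the SUMO ligase of the SMC5/6 complex, had 318, 244, 293 and 315 CPM in controls and 144, 140.2, 117 and 147 in cKO (log2 change -1.09, SE 0.14, edgeR adjusted p = 7.32e-06). All its cKO values were below all control values. In Xdh, which encodes xanthine dehydrogenase, the 177 base exon did not pass the test (log2 change -0.23, SE 0.14, edgeR adjusted p = 0.178). The 79 base exon of Umodl1 fell from 161 ± 6.92 to 96.8 ± 4.61 CPM (SD, n = 4; edgeR adjusted p = 0.00017), while the 185 base exon of the G protein gene Gna14 rose from 93.3 ± 9.69 to 158 ± 17.4 CPM (edgeR adjusted p = 0.000322). In the polycystin family gene Pkd2l2 the 102 base exon was lower (log2 change -0.51, SE 0.13, edgeR adjusted p = 0.00399). None of these 6 exons passed the test for usage, with adjusted p-values of 0.464 to 1.00 in edgeR's test.

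Of the 10 largest falls, counting 1 exon a gene, 7 left at most 4 counts in cKO, and the other 3, in Mmp1b, Map3k5 and Ago2, left 10, 10 and 98. The deepest was the 168 base exon of Dnah11, an axonemal dynein heavy chain, with 3.65, 4.55, 3.63 and 5.09 CPM in controls and 0, 0.214, 0.216 and 0 in cKO. Its ratio of cKO to control was 0.0247 (95% interval 0.00294 to 0.0927), where the interval covers counting error only, and edgeR gave an adjusted p of 2.16e-06. The 179 base exon of Myom2, a protein of the muscle M band, had 85 counts in controls and 3 in cKO, a ratio of 0.0310 (95% interval 0.00626 to 0.0936). For both exons every cKO library was under every control library, which the choice of the largest falls required, so it adds no evidence.

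Similar falls were seen in F2 (prothrombin, 127 bases, 41 counts in controls and 2 in cKO), Ust (a uronyl sulfotransferase, 156 bases, 57 and 3), Tgfb3 (a growth factor, 164 bases, 70 and 4) and Dars (aspartyl-tRNA synthetase, 60 bases, 49 and 3). The 49 base exon of the palmitoyltransferase gene Zdhhc14 had 4.08, 1.68, 2.60 and 2.91 CPM in controls and 0, 0, 0.216 and 0.374 in cKO, a ratio of 0.0549 (95% interval 0.0109 to 0.170). Mmp1b (a matrix metalloproteinase, 134 bases) and Map3k5 (a stress kinase, 171 bases) fell with log2 changes of -3.63 and -3.50 (SE 0.57 and 0.36). Across these exons, edgeR's adjusted p was at most 0.000109. The Ago2 exon among the 10 largest falls is described with its gene.

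The 10 largest rises began from 0 or a few counts. The 152 base exon of Efcab1, which encodes an EF-hand protein, held no count in the 4 control libraries and 12.4, 21.2, 16.4 and 10.1 CPM in cKO, at least 83.4-fold higher against a floor of 3 counts over the control group (log2 change 9.08, SE 0.67, edgeR adjusted p = 1.6e-07). Also at 0 in controls were the 72 base exon of the corepressor gene Skor1 (at least 32.5-fold), the 190 base exon of the protease inhibitor gene Spint4 (at least 23.4-fold), and exons of Rgs7bp (167 bases, at least 22.8-fold), Cmas (143 bases, at least 16.1-fold), Stpg2 (113 bases, at least 15.2-fold) and Srpx (192 bases, at least 14.0-fold). In total 8 members had no control count and none had no cKO count. Those 8 met the count minimum through the cKO group alone, so a rise was the only change they could show. The like share over all tested exon IDs is not given here. Nr1h4, which encodes the bile acid receptor, had 1 control count and 164 in cKO on its 147 base exon, a ratio of 144 (95% interval 25.5 to 5719). Aqp12, an aquaporin, had 1 and 131 on its 117 base exon, a ratio of 115 (95% interval 20.3 to 4575), and the prolactin family gene Prl2a1 had 7 and 483 on its 176 base exon. Prl2a1 has close paralogues, so its counts may be shared with other copies.

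Cmas differs from most of these. Its exon had 0.888, 2.78, 4.11 and 3.56 CPM in cKO, while the other tested exons of the gene, which makes the activated form of sialic acid, summed to 41.3 CPM in controls and 43.0 in cKO. Its usage rose from 0 to 6.11% of the gene's tested exon counts (edgeR adjusted p = 5.89e-06). For Skor1 and Rgs7bp the rest of the gene rose with the exon, from 0.293 to 17.2 and from 0.240 to 6.24 CPM, and usage did not pass the test (edgeR adjusted p = 0.408 and 0.304). All 4 tested exons of Skor1 are members and all rose.

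**Figure D2:**
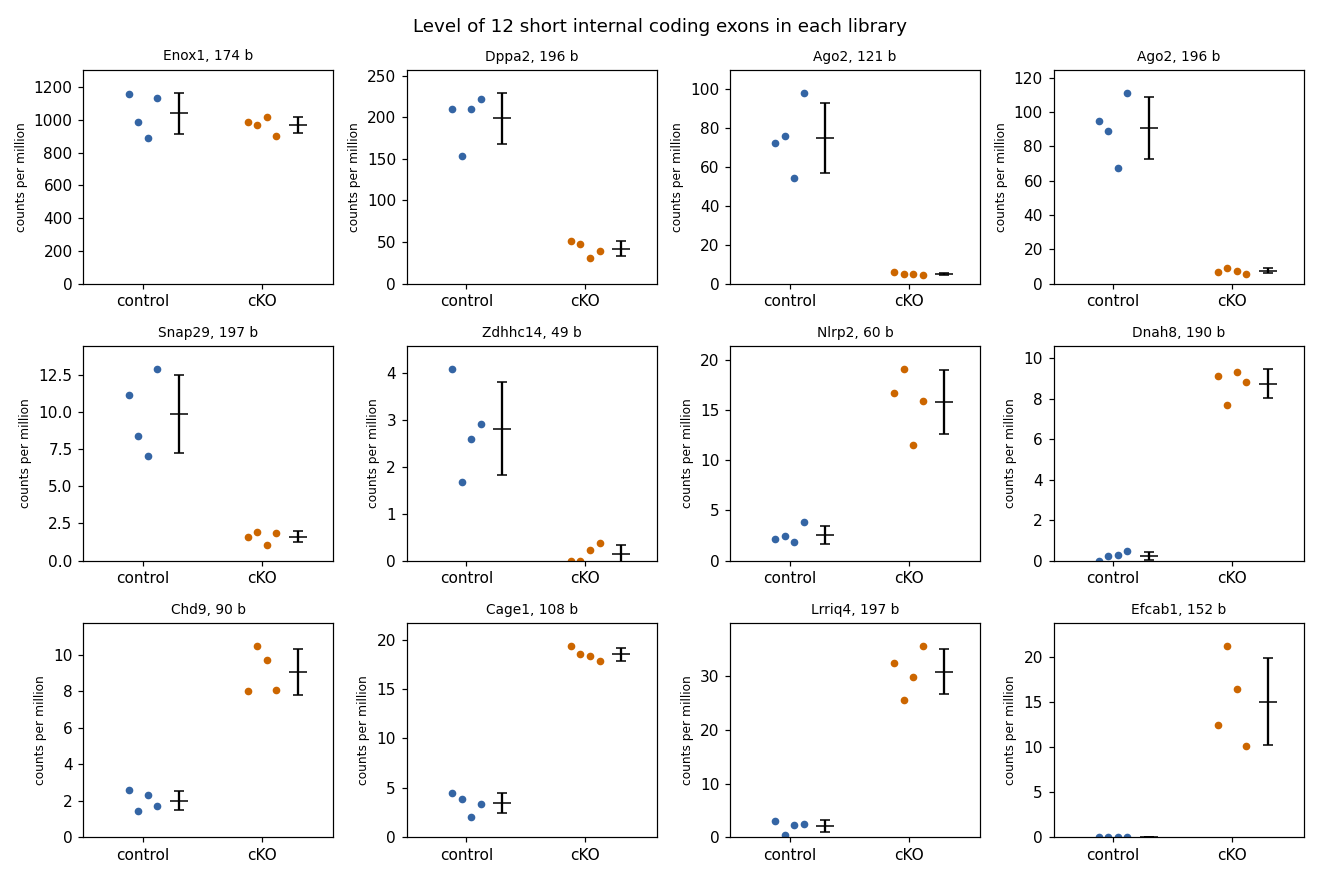
CPM in each library (points) of 12 short internal coding exons, with the mean and SD of 4 libraries (black bars), in controls and cKO. Apart from Enox1, every exon drawn has groups that do not overlap. Exons named for level or for usage were chosen among those without overlap in that measure, so the separation adds no evidence. The exons of Dppa2, Snap29 and Zdhhc14 and both exons of Ago2 are lower and the other 6 exons are higher in cKO.

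Usage asks whether an exon changed against the other tested exons of its gene. Of 1667 members, 125 rose in usage (7.50%) and 175 fell (10.5%) in edgeR's test, against a background of 5.70% and 6.36% over 10387 exon IDs. The 1709 long internal coding exons gave 66 and 62 calls. As the bars of calls by total count show, the excess over all exons was largest at 200 or more counts. At 40 to 79 counts 7.50% of members rose and 9.75% fell, against 7.34% and 7.46% of all exons. From 80 to under 200 counts 7.50% rose and 10.5% fell, against 7.04% and 8.86%. At 200 or more counts 7.50% rose and 11.6% fell, against 4.27% and 4.65%. The share of members that rose was thus level over the ranges, while that of all exons was lowest in the last. Usage percentages did not overlap between groups for 272 of the 300 called members, which lie in 258 genes. This overlap was counted among called members alone and on the same libraries, so it adds no evidence for the calls.

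These calls lean on last exons. When last exons were left out of every gene, 1340 members could be tested and 79 rose and 84 fell, and against internal coding exons alone 66 rose and 63 fell of 1141. Of the 300 called members, 220 were also called for level in the same direction, 75 were not called for level and 5 were called in the opposite direction. Conversely, of 672 members called for level with other exons tested in the gene, 518 had a rest of the gene that differed in the same direction. The direction of the rest is that of its mean CPM, without a test. The like share over all called exon IDs is not given here.

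**Figure D3:**
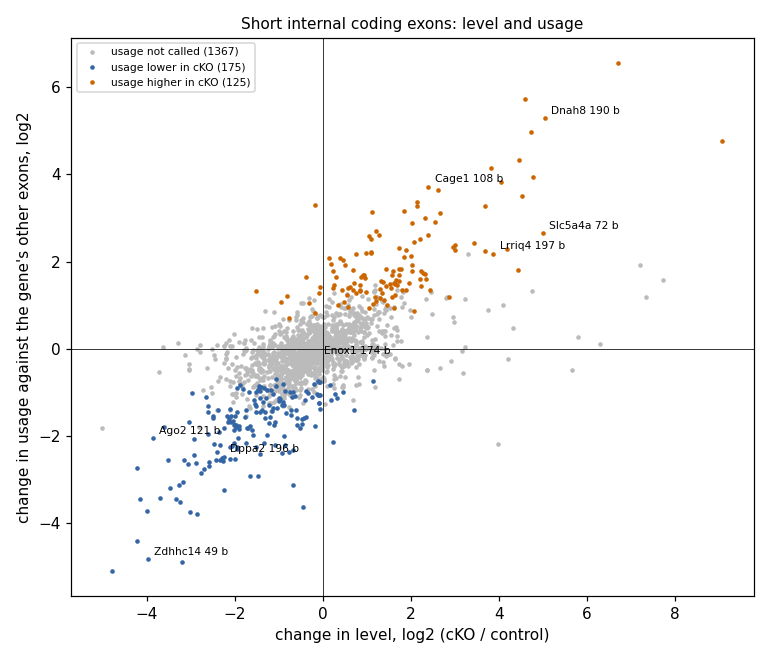
Change in level against change in usage, both as log2 of cKO over control, for the 1667 short internal coding exons with other tested exons in their gene; each point is an exon. Calls for usage (125 higher, 175 lower) lie mostly in the quadrants where level and usage moved the same way, and exons such as that of Enox1 lie near 0 on both axes.

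The exons with the smallest p-values for a fall in usage include a regulator of early embryonic genes. The 196 base exon of Dppa2, exon 7 of 8, had 209.7, 154, 210.0 and 222 CPM in controls and 51.3, 47.9, 30.5 and 39.1 in cKO (log2 change -2.24, SE 0.18, edgeR adjusted p = 7.21e-08). The last exon of the same gene had 669 ± 64.8 CPM in controls and 974 ± 41.1 in cKO (SD, n = 4) and was higher in cKO (log2 change 0.54, edgeR adjusted p = 0.00109). The 196 base exon thus went from 25.3, 19.1, 21.5 and 23.7% of the gene's tested exon counts in the control libraries to 4.82, 4.60, 3.10 and 3.56% in the cKO libraries (log2 usage change -2.47, SE 0.17, edgeR adjusted p = 9.67e-14). The gene sum did not pass the test (edgeR adjusted p = 0.143). Against internal coding exons alone the fall in usage was not called (log2 change -0.59, edgeR adjusted p = 0.0797).

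Ago2 encodes Argonaute 2, the small RNA guided slicer, and it held 2 members side by side. Exon 2 of 19, 196 bases at chr15:73146370-73146565, had 95.1, 89.2, 67.5 and 111 CPM in controls and 7.11, 9.40, 7.56 and 5.80 in cKO (log2 change -3.60, SE 0.21, edgeR adjusted p = 3.16e-09). Exon 3, 121 bases, had 71.9, 75.5, 54.0 and 98.0 CPM in controls and 6.00, 5.13, 4.75 and 4.68 in cKO (log2 change -3.86, SE 0.22, edgeR adjusted p = 2.85e-09). No value of the cKO group came near the controls, though for exon 3 the choice of the largest falls required groups without overlap. The last exon, 11173 bases long, had 35.6 ± 8.07 CPM in controls and 44.6 ± 9.28 in cKO (SD, n = 4) and was not called (log2 change 0.32, SE 0.20, edgeR adjusted p = 0.193). Exons 4 to 18 held at most 5 counts each over the 8 libraries. The fall of the gene sum (log2 change -1.83, edgeR adjusted p = 3.91e-07) lies in exons 2 and 3, which held 1534 and 1262 counts in controls and 142 and 98 in cKO, beside 601 and 855 on the last exon. Usage of both exons fell against the last exon, and with the last exon left out neither was called (log2 changes 0.11 and -0.15, edgeR adjusted p = 1.00 for exon 2 and 1.00 for exon 3), since they then have no other exon than each other.

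**Figure D4:**
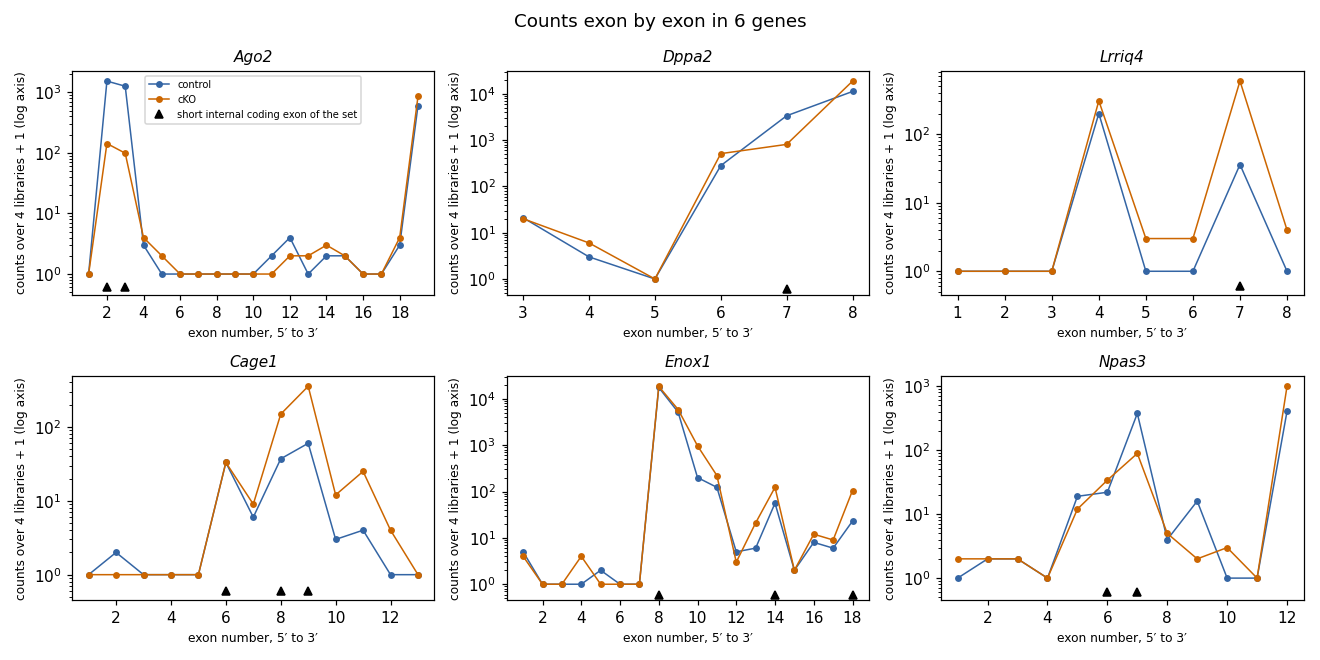
Counts summed over the 4 libraries of each group, plus 1, on a log axis, along the exons of the longest transcript that holds the member in 6 genes; exon IDs absent from the files are not drawn and triangles mark members. The members differ between groups at exons 2 and 3 of Ago2 and at exon 7 of Dppa2, Lrriq4 and Npas3, the last exons of Dppa2 and Npas3 are higher in cKO, and the Enox1 lines run together at exon 8.

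Other exons lost usage in genes whose other exons had a higher mean in cKO. The 197 base exon of Snap29, a SNARE of membrane fusion, had 11.2, 8.39, 7.01 and 12.9 CPM in controls and 1.55, 1.92, 1.08 and 1.87 in cKO, beside 102 and 118 CPM on the gene's other tested exons (log2 usage change -2.69, SE 0.29, edgeR adjusted p = 2.32e-08). For the 49 base exon of Zdhhc14 the fall in usage was from 4.00% to 0.108% (edgeR adjusted p = 1.05e-09), and 3 other members of Zdhhc14 were not called for level. Dscam, a neuronal adhesion gene, had 5 members, and its 177 base exon fell from 5.13% to 0.383% of the gene's counts (edgeR adjusted p = 5.04e-11) while its 118 base exon rose in level from 58.0 to 121 CPM (edgeR adjusted p = 2.04e-05). The 87 base exon of Add3, an adducin of the membrane skeleton, and the 146 base exon of the centriole gene Cep120 fell from 3.06% to 0.311% and from 2.39% to 0.211%.

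In Npas3, a bHLH-PAS transcription factor gene, the 119 base exon had 33.0, 12.7, 16.6 and 25.0 CPM in controls and 3.55, 4.06, 4.97 and 5.62 in cKO, while the last exon rose from 23.7 to 52.1 CPM (edgeR adjusted p = 0.000411). Without last exons its usage was not called (log2 change -0.38, edgeR adjusted p = 0.707). Usage can also fall with no call for the level of the exon. The 132 base exon of Eif5a2, a translation factor gene, had 2.15, 3.12, 1.82 and 2.43 CPM in controls and 2.00, 2.14, 1.08 and 1.69 in cKO and was not called for level (edgeR adjusted p = 0.314). The last exon of Eif5a2 rose from 2.66 ± 0.447 to 43.5 ± 8.72 CPM (SD, n = 4), so the short exon went from 46.9% to 3.97% of the gene's counts.

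Exons that gained usage include that of the axonemal dynein gene Dnah8. The 190 base exon of Dnah8 had 0, 0.240, 0.260 and 0.485 CPM in controls and 9.11, 7.69, 9.29 and 8.80 in cKO (log2 change 5.04, SE 0.43, edgeR adjusted p = 1.32e-07). Every cKO library was above every control library for level, and the choice of exons by usage required usage that does not overlap. Usage went from 0.257% to 10.7% (edgeR adjusted p = 2.34e-16), the smallest p for usage among the members, while the rest of the gene had 96.0 and 72.7 CPM. The 60 base exon of Nlrp2, a maternal NLR family gene, had 2.15, 2.40, 1.82 and 3.88 CPM in controls and 16.7, 19.0, 11.5 and 15.9 in cKO (log2 change 2.61, SE 0.28, edgeR adjusted p = 1.32e-06). The gene itself fell (log2 change of the gene sum -1.05, edgeR adjusted p = 0.000109), and 3 of the gene's other 4 members, each 171 bases, fell with it. Their equal length is that of the leucine-rich repeat exons of the Nlrp family, whose copies resemble each other, so counts on them are less certain.

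The 108 base exon of Cage1 had 4.51, 3.83, 2.08 and 3.40 CPM in controls and 19.3, 18.6, 18.4 and 17.8 in cKO (log2 change 2.40, SE 0.24, edgeR adjusted p = 7.06e-07), and the 81 base exon before it rose as well (log2 change 1.84, edgeR adjusted p = 4.89e-05). A 2558 base last exon of another Cage1 transcript, which lies upstream of both, fell from 121 to 23.9 CPM (edgeR adjusted p = 3.57e-07). Without last exons, the usage of the 108 base exon was not called (log2 change 0.51, edgeR adjusted p = 0.431), while its level call does not use them. In Lrriq4, whose product carries leucine-rich repeats, exon 7 had 3.00, 0.479, 2.34 and 2.43 CPM in controls and 32.4, 25.6, 29.8 and 35.6 in cKO, and the 1048 base exon 4 had 11.9 ± 1.14 CPM in controls and 15.9 ± 2.00 in cKO (SD, n = 4) and was not called (edgeR adjusted p = 0.0889).

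Of 8 members in chromatin modifier genes 1 rose and 1 fell, both in the chromatin remodeller gene Chd9. Its 90 base exon had 2.58, 1.44, 2.34 and 1.70 CPM in controls and 8.00, 10.5, 9.72 and 8.05 in cKO (log2 change 2.15, SE 0.28, edgeR adjusted p = 1.02e-05), and the 144 base exon fell from 5.86 ± 1.47 to 1.61 ± 1.08 CPM (SD, n = 4; edgeR adjusted p = 0.000995). A 3285 base exon ID that is the sole exon of its transcript fell from 29.1 to 1.23 CPM and held most control counts of the gene. The 117 base exon of Myo9a, an unconventional myosin gene, had 2 counts in controls and 67 in cKO, a ratio of 29.4 (95% interval 7.83 to 248), beside a gene sum that fell (log2 change -1.02). For Lyplal1 (170 bases) and Nlrp9c (82 bases) the other tested exons went from 341 to 123 CPM and from 1363 to 334 CPM, and both gene sums fell (log2 changes -1.44 and -2.05, edgeR adjusted p = 2.19e-07 and 5.75e-08). Their own rises in level (edgeR adjusted p = 0.0307 and 0.0426) were lost with DESeq2 (adjusted p = 0.0535 and 0.102) and without single libraries, cKO replicate 4 above all (edgeR adjusted p = 0.101 and 0.168).

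Some genes held members that changed usage in opposite directions, 14 in all, and 21 held members with opposite level calls. Most of the genes described next were chosen for this after their values were seen. Like counts over exons outside the set are not given here. Slc5a4a and Ust, both among the 14, have 2 tested exons each. There a rise in usage of 1 exon is by definition a fall of the other. In Slc5a4a, a gene of the sodium-glucose cotransporter family, the 72 base exon had 1.29, 0.479, 1.30 and 0.243 CPM in controls and 25.5, 28.6, 27.2 and 28.6 in cKO (log2 change 5.00, SE 0.32, edgeR adjusted p = 5.88e-09). The 169 base exon of the same gene had 5.15, 4.55, 7.27 and 6.55 CPM in controls and 8.44, 5.77, 5.83 and 7.30 in cKO and was not called for level (edgeR adjusted p = 0.498). The upstream exon thus went from 20.0, 9.52, 15.2 and 3.57% of the tested counts to 75.2, 83.2, 82.4 and 79.7%.

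Haus1 encodes a subunit of augmin, the complex that branches spindle microtubules. Its 48 base exon had 11.2, 5.75, 16.1 and 7.03 CPM in controls and 36.7, 36.5, 32.6 and 30.3 in cKO, and its 135 base exon 57.5, 41.9, 23.4 and 53.6 and 11.1, 11.3, 11.2 and 13.3 CPM (log2 changes 1.77 and -1.91, edgeR adjusted p = 3.36e-05 and 9.31e-06). The 72 base exon between them also rose (log2 change 1.31, SE 0.28, edgeR adjusted p = 0.00106), and the gene sum was not called (log2 change -0.10, edgeR adjusted p = 0.637). So the 2 exons nearer the 3′ end rose and the upstream exon fell within a gene whose total did not pass the test. Control replicate 3 lies nearest the cKO libraries for both exons.

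Spef2, a gene of the sperm flagellum, showed the same order: its 139 base exon fell from 11.3 to 2.81 CPM and the downstream 154 and 129 base exons rose from 1.40 to 3.47 and from 0.990 to 5.32 CPM. In Ttc28 the upstream 148 base exon fell from 7.78 to 1.02 CPM and the downstream 130 base exon rose from 0.837 to 3.51 CPM. Ift74, of the intraflagellar transport complex, also had an upstream fall (135 bases, 6.53 to 1.05 CPM) and a downstream rise (61 bases, 0.353 to 1.92 CPM). Dnah8 and Ankrd36 went the other way. In Ankrd36 the 86 and 73 base exons rose (log2 changes 1.90 and 2.54) and the downstream 192 base exon fell (log2 change -1.06), and in Dnah8 a 190 and a 103 base exon rose and the 119 and 74 base exons towards the 3′ end fell (log2 changes -1.99 and -1.18). The level calls of these exons had edgeR adjusted p-values of at most 0.00935. Among the 21 genes with opposite level calls, an upstream fall and downstream rise was also seen in BC067074, Chd9, Cyp19a1, Nlrp9c, Pex7 and Ptgis. The reverse order was also seen in Cc2d2b, Cep120, Chchd3, Fbxw22, Fbxw27, Fyb2, Nlrp2 and Slc26a5, and Dscam was mixed. Neither order prevailed.

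**Figure D5:**
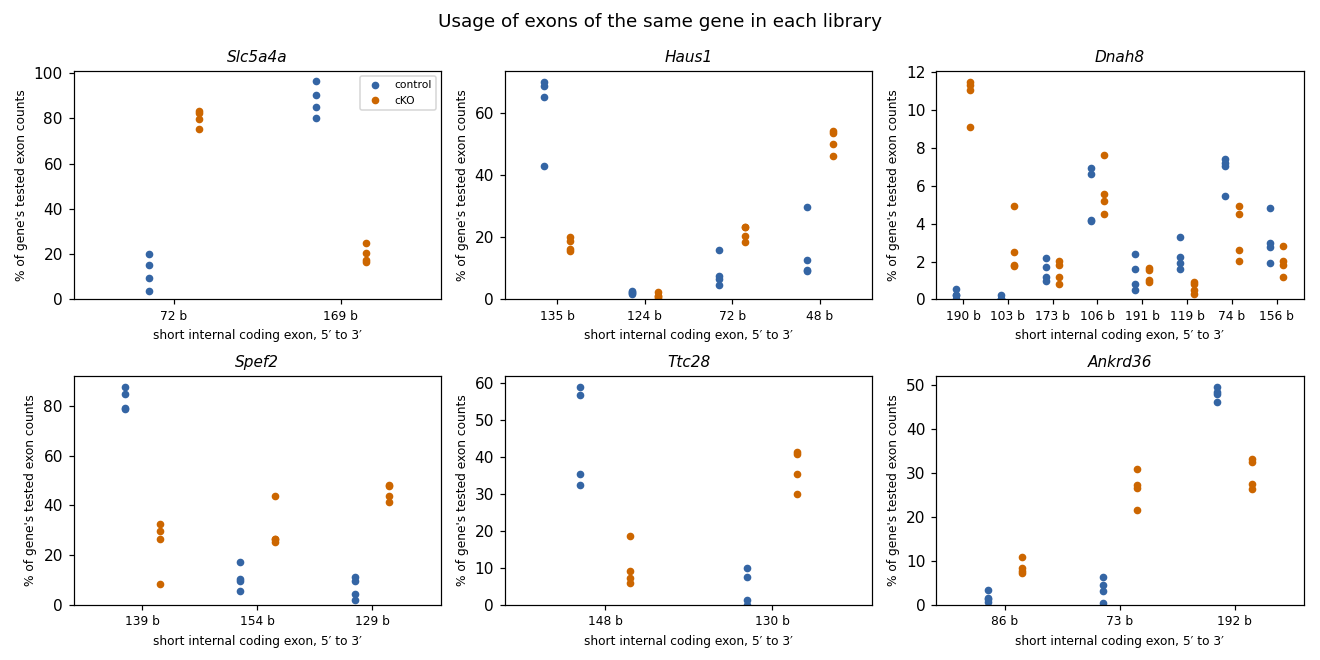
Usage, as percent of the tested exon counts of the gene, in each library (points; 4 control, 4 cKO) for the members of 6 genes in which members changed usage in opposite directions, ordered from 5′ to 3′. In Slc5a4a, Haus1, Dnah8, Spef2 and Ttc28 the drawn exon with the largest mean share differs between the groups. Slc5a4a has 2 tested exons, so their shares mirror each other.

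Neighbouring members more often shared a call than opposed each other. Of 283 pairs of members that are consecutive exons, both were lower in level in 45, both higher in 17 and opposite in 4, with a call for 1 exon of the pair in 85 and for neither in 132. Neighbours share transcripts and libraries, so they are not independent. Like counts for pairs of other exons are not given here.

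Genes of the m6A pathway could hardly be followed through short exons. None of 11 listed writer genes had a member, and of 14 reader and eraser genes Hnrnpc alone had members. Its 182 base exon had 4.51, 3.12, 3.12 and 5.82 CPM in controls and 6.89, 6.20, 4.11 and 5.43 in cKO and its 161 base exon 0.644, 2.40, 3.63 and 2.91 and 4.00, 3.42, 1.51 and 3.56, with overlap and no call for level or usage (edgeR adjusted p = 0.224 and 0.456 for level). Their usage changed sign when last exons were left out (log2 change 1.29, edgeR adjusted p = 0.00341, and 1.26, adjusted p = 0.0194), against -0.18 and -0.22 with them, so it depends on what the exons are compared with.

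Level calls in the gene lists have as background 24.7% lower and 23.5% higher over all tested exon IDs. Lists with few members cannot be set against these shares. Among splicing factors, 6 members lay in 3 SR and hnRNP genes and 3 of them rose, none fell (median log2 change 0.75). They were the members of 75, 177 and 181 bases in Srsf7, an SR protein gene known to regulate its own splicing. The 177 base exon had 2.58, 2.40, 0.260 and 3.88 CPM in controls and 8.66, 9.40, 5.40 and 7.30 in cKO, and the gene sum rose as well (log2 changes 1.72 and 2.04, edgeR adjusted p = 0.00183 and 1.68e-07). Of 5 members in core spliceosome genes, that of Snrpc, a U1 protein, rose (log2 change 0.92, SE 0.33, edgeR adjusted p = 0.0295) and lost its call with DESeq2 (adjusted p = 0.0783), and the exon of the Sm protein gene Snrpd2 was not called (edgeR adjusted p = 0.156). None of 3 members in cleavage and polyadenylation genes was called for level. The 182 base exon of Cpsf2, a cleavage factor subunit, was lower in usage (edgeR adjusted p = 0.0368), a call that did not hold without last exons (edgeR adjusted p = 1.00) or without control replicate 3 (edgeR adjusted p = 0.183).

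Among 50 members in 18 oocyte and maternal effect genes, 17 fell and 1 rose, with a median log2 change of -0.41, against -0.26 over the set. The exon that rose was the 60 base exon of Nlrp2, and the falls lay in Ago2, several Nlrp genes, Astl, Npm2, Oosp2 and Zp1. Zp1 is a zona pellucida protein, Astl the egg protease ovastacin and Npm2 the egg histone chaperone nucleoplasmin. Nlrp5, a component of the subcortical maternal complex, had a 171 base exon with 3.86, 5.51, 6.75 and 6.06 CPM in controls and 9.996, 9.19, 5.62 and 7.86 in cKO that was not called for level and was higher in usage (edgeR adjusted p = 0.0901 and 0.0174). Summed by symbol after the values were seen, 34 members in 9 Nlrp genes gave 14 falls and 2 rises for level, but 6 rises and no fall for usage. Over all tested exon IDs, 24.7% were lower and 23.5% higher for level, and 6.36% lower and 5.70% higher for usage. The 40 members in 12 Fbxw genes, a family of oocyte F-box genes with close paralogues, gave 11 falls and 3 rises, a share of falls close to the 26.3% of the set.

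Of 8 members in mRNA storage, translation control and decay genes, 2 rose, both in Zar1l, and 1 fell. The 93 base exon of Zar1l, of the zygote arrest family, had 3.00, 2.16, 2.08 and 3.40 CPM in controls and 8.88, 10.04, 7.35 and 8.43 in cKO (log2 change 1.69, SE 0.27, edgeR adjusted p = 7.1e-05). The 87 base exon of Patl2, an oocyte RNA-binding protein gene, had 2.79, 7.67, 3.38 and 1.46 CPM and 1.11, 1.07, 1.08 and 0.749 (log2 change -1.91, SE 0.48, edgeR adjusted p = 0.00361). For Upf2, a nonsense-mediated decay factor, the 109 base exon fell in usage from 23.1% to 4.51% (edgeR adjusted p = 0.00442) without a level call (edgeR adjusted p = 0.122).

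In 14 spindle, kinetochore and cohesin genes, 3 of 22 members rose, in Nipbl, Bub1b and Ndc80, and 2 fell, in Cenpe and Bub1. The 189 base exon of Nipbl, the cohesin loader, had 1.50, 1.44, 2.86 and 1.21 CPM in controls and 4.22, 5.77, 8.00 and 5.43 in cKO (log2 change 1.74, SE 0.34, edgeR adjusted p = 0.000495), with a rest of the gene of 66.4 and 64.4 CPM. The 181 base exon of the kinetochore motor gene Cenpe had 9.66, 7.91, 6.49 and 10.2 and 3.55, 3.63, 4.54 and 2.25 CPM (log2 change -1.30, SE 0.28, edgeR adjusted p = 0.000939), with 37.0 and 37.0 CPM on the rest. The rest of either gene thus had near-equal means in both groups. Bub1, a checkpoint kinase, had a 53 base exon whose fall (edgeR adjusted p = 0.0490) was lost with DESeq2 (adjusted p = 0.137) and without control replicate 1 or 4 or cKO replicate 1, 2 or 3 (edgeR adjusted p up to 0.139).

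Ubiquitin and proteasome genes had 17 members, of which 4 fell, in Cul4b and Fbxw15, and none rose. That share of falls is near the 24.7% of all tested exon IDs. The 174 base exon of Cul4b, a cullin scaffold, fell from 8.92 ± 2.12 to 3.81 ± 1.20 CPM (SD, n = 4; edgeR adjusted p = 0.00187), and the 119 base exon of the F-box gene Fbxw15 fell too (log2 change -2.13, SE 0.36, edgeR adjusted p = 0.000123). In DNA repair, the 134 base exon of Xrcc5 (Ku80) fell and the 167 base exon of Xrcc4, its partner in end joining, rose (log2 changes -1.24 and 1.03, edgeR adjusted p = 0.000236 and 0.00174), out of 4 members. Xpo5, the exporter of microRNA precursors, had a 183 base exon that fell (log2 change -1.57, SE 0.41, edgeR adjusted p = 0.00463), and the 86 base exon of the nuclear pore gene Nup188 was not called. Transcription machinery had 5 members with 2 rises, in Gtf2b and Polr3b (edgeR adjusted p = 0.0161 and 0.0229), both lost without control replicate 1 and other single libraries (edgeR adjusted p up to 0.0660 and 0.0540).

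Translation genes had 5 members and 1 rise, of the 143 base exon of Eif3d (edgeR adjusted p = 0.0242), which was lost with DESeq2 (adjusted p = 0.0759). The ribosomal protein gene Rplp0 had a 186 base exon that was not called (edgeR adjusted p = 0.0592). Of 7 members in meiosis and cell cycle genes none was called, those of the kinase gene Wee2 included. The 127 base exon of Rictor, a subunit of mTORC2, had 2.15, 2.16, 2.08 and 2.43 CPM in controls and 2.00, 2.99, 2.16 and 2.81 in cKO, while the rest of the gene went from 223 to 63.9 CPM, and its usage rose (edgeR adjusted p = 9.8e-05). Without last exons that rise was not called (edgeR adjusted p = 0.721).

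Among markers of other ovarian cells, Cyp19a1 (aromatase of granulosa cells) held the 2 members found. Its 163 base exon rose and its 177 base exon fell (log2 changes 1.10 and -1.44, edgeR adjusted p = 0.0336 and 0.00121). A 242 base exon outside the set held 68.6% of the gene's tested exon counts in controls. It fell from 18.3 ± 3.66 to 7.12 ± 1.11 CPM (SD, n = 4; edgeR adjusted p = 0.000104), while the sum of the cumulus and granulosa markers was higher in cKO. No theca, vessel or immune marker held a member, although the immune and blood sum was higher in cKO, from 0.747 ± 0.542 to 7.97 ± 1.72 CPM (SD, n = 4).

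Sequence and frame differed little between the set and all short internal coding exons. GGACT was in 14.9% of members and 12.0% of all short internal coding exons, and the gap is smaller at like length: 8.86% against 7.49% under 100 bases, 14.4% against 13.2% at 100 to 149 and 17.8% against 17.5% at 150 to 199 bases. It was in 19.2% of the 125 members that rose in usage and 15.4% of the 175 that fell. Length was a multiple of 3, so that skipping the exon keeps the reading frame, in 38.4% of members and 40.2% of all short exons, in 46.7% of members with a higher level and 37.7% of those with a lower level. The base before the donor was G in 79.9% of members, 79.6% of all, and 88.8% of members that rose in usage. These shares are descriptions and carry no test.

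At the limits of the rule, 24 exons had exactly 40 counts and 38 had 39. Just inside were exons of Pla2g4c, Parn and Spidr with 40 counts, and just outside were exons of BC055324, Zfp970 and Lbr with 39. The 155 base exon of Spidr had 3, 4, 1 and 3 counts in controls and 4, 8, 5 and 12 in cKO, and the 193 base exon of Lbr had 3, 7, 7 and 1 in controls and 10, 2, 3 and 6 in cKO. By length, 9 members had 199 bases, among them exons of Obox2 with 2477 counts and Serpine2 with 122, and 19 exons with 200 bases lay outside, such as those of Obox5 with 1493 and Obox1 with 1398 counts. Obox genes are near-identical copies, so the split of their counts is uncertain.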

How the data were processed

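RNA of 8 libraries of mouse GV oocytes, 4 per group, was measured. RNA was primed with oligo-dT, template switched, amplified, tagmented and read as pairs, per the labels' protocols, and such libraries do not mark strand. Each deposited file holds raw counts of 1 library, a whole number for each exon ID, made by the authors with HTSeq on STAR alignments to mm10 as far as the submitters' processing notes tell. Tool versions, options and the annotation used are not given there. HTSeq's 5 summary rows stayed out of library sizes and tests. Exon IDs were matched to GENCODE M21, versions ignored, and 494230 of 496288 (99.6%) matched. The unmatched IDs held 0.252% of counts. Exon sequences came from the GENCODE M21 transcripts.

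Depth was 4235691 to 5052551 matched counts per library, and 3 counts are 0.562 to 0.779 CPM after TMM scaling. Exon IDs with 40 counts over the 8 libraries were kept, scaled by TMM and tested by edgeR 4.0.16 (quasi-likelihood test for level, diffSpliceDGE for usage, group as the sole term), two-sided with Benjamini-Hochberg adjustment over all tested exon IDs at 0.05. CPM values scale counts by matched library size times the TMM factor. Fitted log2 changes are scaled by TMM as well. Usage percent is an exon's counts over the counts of the gene's tested exons. Intervals of count ratios are exact (Clopper-Pearson, 95%), and they and the floor of 3 counts cover counting error only. The scripts were tested on simulated data.

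Named exons are the up to 10 of smallest usage p per direction with usage that does not overlap, the up to 10 of largest level change per direction (at least 2 CPM in the higher group, no overlap), 1 exon a gene without clone-style names, the 6 with most counts, and, for each of 16 fixed lists of 656 genes in all, the 2 of smallest level p and those called for usage. The members and lists were chosen with earlier results of these data known. The labels do not say whether replicate numbers pair the libraries, and the main fit used no pairing. Alternatives were other scalings, filters, DESeq2 1.42.0, limma 3.58.1, other comparison exons, a replicate block and each library left out.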

Additional observations from a re-analysis of the deposited data

Results flagged for a closer look

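Of 164 groups of 4 libraries looked at (named exons in each group, and library measures), 9 had a library far from the other 3 by Dixon's ratio at the 95% level, where chance flags about 1 in 20. On low exons the gap is 1 or 2 counts: the 117 base exon of Myo9a had 0.429 CPM in control replicate 1, that of Nr1h4 0.260 CPM in control replicate 3 and that of Aqp12 0.215 CPM in control replicate 1, each with 0 in the other control libraries. The 156 base exon of Ust had 0 CPM in cKO replicate 1 against 0.187 to 0.216 CPM in the others. The 177 base exon of Dscam had 0.889 CPM in cKO replicate 1 against 0.374 to 0.432 CPM. Patl2 had 0.749 CPM in cKO replicate 4 against 1.07 to 1.11 CPM, Upf2 had 2.67 CPM in control replicate 4 against 1.44 to 1.56 CPM, and Eif3d had 2.44 CPM in cKO replicate 1 against 1.50 to 1.51 CPM. Ambiguous reads were 80.4% in cKO replicate 3 against 78.8% to 79.0% in the other cKO libraries.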

How the results depend on the processing

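Level calls kept within 1.5 times the reported counts under each alternative run. With 1 library left out in turn they were 232 to 273 higher and 423 to 494 lower, and with DESeq2 237 higher and 441 lower, of which 235 and 440 were among the reported calls. Usage calls fell by more. Against the reported 125 higher and 175 lower, edgeR's filterByExpr gave 81 and 113 of 956 members tested, a minimum of 80 counts 76 and 105 of 941, last exons left out 79 and 84 of 1340, and internal coding exons alone 66 and 63 of 1141. In each of these fewer members could be tested. With 1 library left out, usage calls were 101 to 118 higher and 135 to 176 lower, and limma gave 151 and 220. The share of counts on the set was 1.47% in controls and 1.33% in cKO. It moved to 0.759% and 0.666% for exons under 150 bases, to 1.75% and 1.63% with 1 count as the minimum, to 1.65% and 1.45% of counts of protein-coding genes, and in cKO to 1.21% with 80 counts as the minimum. With 1 library left out it was 1.42% to 1.52% in controls and 1.30% to 1.36% in cKO.

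For the named exons, 45 of the level values and 65 of the usage values under alternatives lost their call. Without last exons the usage of the Hnrnpc exons turned to 1.29 and 1.26, and that of the 196 base exon of Ago2 to 0.11, also against internal coding exons alone (0.11). Deviations of same-numbered libraries correlated at -0.03 to 0.08, which cannot settle whether the replicate numbers pair the libraries. A fit with the replicate block gave 259 higher and 479 lower for level and 120 higher and 173 lower for usage. Of the 4 cKO libraries, 2 correlated best with the control of their own number. Depth limits the members with few counts: 227 of the 1885 held under 20 counts in controls and 216 in cKO.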
